A study of Mus musculus with 12 samples.

Results

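Hpgds, Abcc4 and Ptger4 encode an enzyme that makes a prostaglandin, a transporter that exports prostaglandins and a receptor that senses one, and their mRNAs were followed here in the oviducts of immature mice with or without ESR1, the estrogen receptor alpha. The 3 genes were chosen by symbol with their differences between ESR1KO and WT oviducts in these arrays already known, so those differences are given as a description and without a test. They were 3 of 1914 gene symbols in the 1997 rows whose values could be joined across all 12 arrays, in a table of 45101 rows. The measurements came from 4 groups of 3 Affymetrix arrays each, all on a C57BL/6 background. PMSG-treated ESR1KO mice (ESR1-/-, some with ZP3Cre) received 5 IU of PMSG at 23 days of age and were killed 48 h later. PMSG-treated WT mice were sibling controls (ESR1flox/-, some with ZP3Cre) given the same treatment. ESR1KO and WT mice of the same genotypes were killed untreated at 23 days of age. The WT controls therefore carried 1 floxed and 1 deleted copy of ESR1, and the deletion, made with a Cre that is active in the oocyte, was global. Each array held RNA of whole oviducts pooled from 3 to 4 mice, so spread between arrays is spread between pools. PMSG, a gonadotropin that stimulates ovarian follicles and so raises estradiol, cannot be told apart here from the additional 48 h of age.

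Prostaglandins are made on demand and act close to where they are made. Phospholipases A2 release arachidonic acid from membranes, the cyclooxygenases Ptgs1 and Ptgs2 convert it to prostaglandin H2, and terminal synthases turn this into the individual prostaglandins. Hpgds, the hematopoietic prostaglandin D synthase, is a glutathione-requiring enzyme of the glutathione S-transferase family that makes prostaglandin D2. Abcc4, also called MRP4, is an ATP-driven pump that carries prostaglandins and cyclic nucleotides out of cells. Ptger4 encodes EP4, a receptor for prostaglandin E2 that raises cyclic AMP. In the oviduct, prostaglandins are known for acting on the smooth muscle that moves gametes and embryos.

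The 250 bases upstream of each annotated start are shown because the comparison is between oviducts with and without a transcription factor that binds DNA. They were taken from RefSeq (GRCm38.p6), which had an entry for all 3 genes, and all 3 genes lie on the minus strand, so each sequence is the minus strand read 5′ to 3′ toward the start. Hpgds lies at chr6:65117293-65144981, Abcc4 at chr14:118482692-118707856 and Ptger4 at chr15:5233399-5244187. The stretches shown are chr6:65144731-65144980 for Hpgds, chr14:118706220-118706469 for the first of 2 annotated starts of Abcc4 and chr15:5244188-5244437 for Ptger4. The stretches of Hpgds and Abcc4 lie within the gene intervals given above, which extend further upstream, whereas that of Ptger4 lies outside its gene interval. Capitals mark matches on either strand to the estrogen response element half-site GGTCA or the GC box GGGCGG.
Hpgds: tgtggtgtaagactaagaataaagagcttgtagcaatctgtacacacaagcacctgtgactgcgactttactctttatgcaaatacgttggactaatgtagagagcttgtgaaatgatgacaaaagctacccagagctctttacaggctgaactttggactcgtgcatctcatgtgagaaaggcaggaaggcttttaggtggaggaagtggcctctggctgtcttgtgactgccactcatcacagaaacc
Abcc4: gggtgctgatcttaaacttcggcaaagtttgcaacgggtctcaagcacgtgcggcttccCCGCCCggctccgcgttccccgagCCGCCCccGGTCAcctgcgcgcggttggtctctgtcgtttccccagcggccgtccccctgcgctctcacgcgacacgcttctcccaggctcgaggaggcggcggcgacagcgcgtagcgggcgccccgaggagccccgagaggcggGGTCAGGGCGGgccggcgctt
Ptger4: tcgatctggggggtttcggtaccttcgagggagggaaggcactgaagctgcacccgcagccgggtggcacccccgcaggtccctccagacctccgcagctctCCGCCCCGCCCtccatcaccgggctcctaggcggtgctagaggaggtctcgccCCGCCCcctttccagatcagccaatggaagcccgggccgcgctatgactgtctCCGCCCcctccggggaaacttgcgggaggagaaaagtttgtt

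None of the 3 stretches held the full estrogen response element, the palindrome in which GGTCA and TGACC flank any 3 bases, which 0.0639% of 32851 RefSeq promoter windows of the same length held. Abcc4 had 2 half-sites, beginning 159 and 21 bases upstream, and 35.2% of all windows held at least 1. The half-site nearer the start is followed directly by a GC box. Abcc4 had 3 GC boxes and Ptger4 had 4, a pair of which share a base, and 32.7% of all windows held one. No stretch held an AP-1 site (TGANTCA, in 6.75% of windows) or a cyclic AMP response element (TGACGTCA, in 1.55%), and the window of Hpgds and that of the second start of Abcc4 held no match to any of these motifs. These matches are descriptions of letters in a short window. Sequence of these genes outside the windows was not searched, including that beyond the upstream ends of the Hpgds and Abcc4 gene intervals.

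Array medians lay between 5.63 and 5.75 on the log2 scale, and 41.5% to 42.3% of the signals on an array were below 4, taken here as near background. Esr1 itself was measured at 10.11 to 10.62 in PMSG-treated ESR1KO and 12.21 to 12.82 in PMSG-treated WT oviducts, and at 10.42 to 12.13 in ESR1KO and 12.92 to 13.05 in WT oviducts, so a signal of the targeted gene remained in all ESR1KO arrays and replicate 2 of the untreated ESR1KO group held the highest of them. Other arrays also deviated from their group in many rows at once. Of 420 joined rows at least 2-fold lower in PMSG-treated oviducts of ESR1KO than of WT mice, 52.6% had their highest ESR1KO signal in ESR1KO replicate 2 and 52.4% their highest WT signal in WT replicate 2, where an even spread would put 1 in 3. Of 587 rows at least 2-fold higher, 52.8% had their lowest ESR1KO signal in ESR1KO replicate 2 and 51.4% their lowest WT signal in WT replicate 2. PMSG-treated WT replicate 3 was the lowest array of its group in 63.6% and 65.6% of these 2 sets, and PMSG-treated ESR1KO replicate 1 in 62.7% of the second. The untreated differences of all 10 prostaglandin genes read across the 12 arrays are given with and without ESR1KO replicate 2, and the part of that array in them was not tested. As a check of the tissue, all 6 secretory and all 7 ciliated epithelium markers, Ovgp1 and Foxj1 among them, were above 4 in the untreated ESR1KO arrays, the only arrays in which every annotated probe set could be named. Of 7 ovary markers, 6 were named in the annotation. In the same arrays 2 of these had means of at least 4, Inha (8.04) and Star (5.30), and Amh, Fshr, Gdf9 and Zp3 were below 4. Whether ovarian tissue was present was not tested.

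The genotype differences were largest for Hpgds, which was far lower without ESR1. The Hpgds probe set 1421492_at read 5.66, 4.87 and 4.29 in PMSG-treated ESR1KO arrays, against 11.71, 11.29 and 10.42 in PMSG-treated WT arrays. The groups were separated by 4.75 log2 units at their nearest arrays. The difference of means was -6.20 (SE 0.40, n = 3 each), a 73.4-fold lower signal, and only 9 of the 45101 rows were lower by more in that comparison. The low arrays lie just above 4, where background correction compresses signals. The size of this difference is therefore uncertain, on the log2 scale and as a fold alike.

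**Figure D1:**
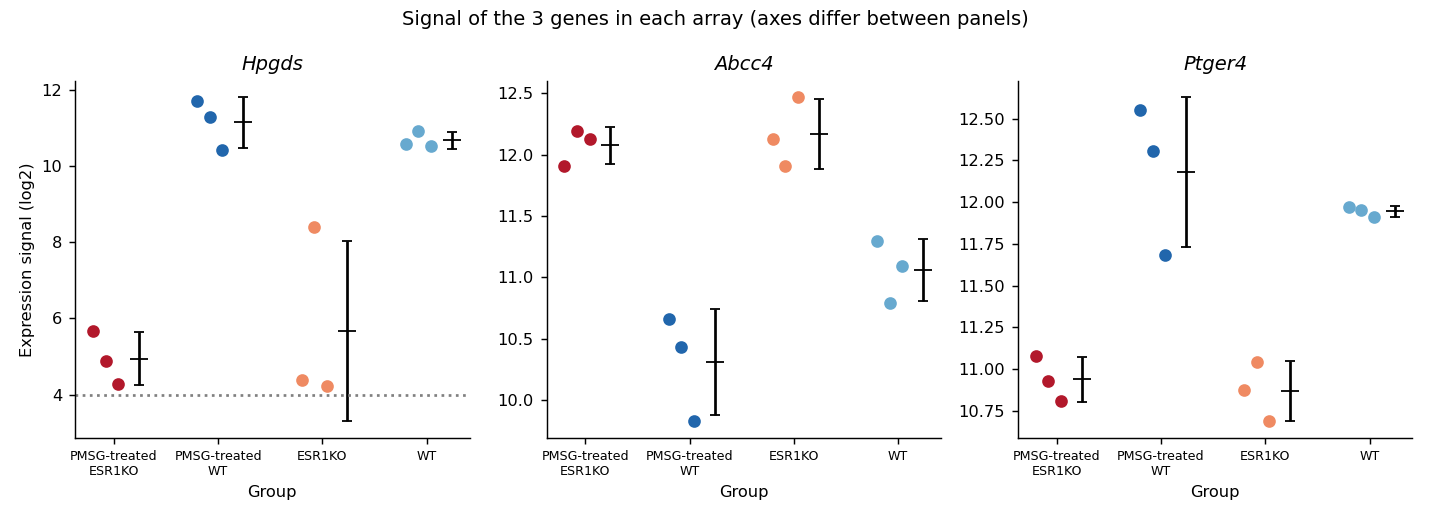
Expression signal (log2, vertical axes, which differ between panels) of Hpgds, Abcc4 and Ptger4 by group. Each point is 1 array, with replicate 1 leftmost, the black bar gives the group mean with its SD (n = 3), and near background lies under the dotted line at 4. Hpgds and Ptger4 lie lower and Abcc4 higher in both ESR1KO groups than in the matching WT group, and ESR1KO replicate 2 stands at 8.38 for Hpgds, apart from 4.38 and 4.21.

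In untreated oviducts Hpgds read 4.38, 8.38 and 4.21 in ESR1KO arrays, against 10.57, 10.92 and 10.51 in WT arrays. Replicate 2 of the ESR1KO group is the array that also kept the most Esr1 signal, and it lay between the other ESR1KO arrays and the WT arrays. The difference of means was -5.01 (SE 0.90), or 32.2-fold lower in ESR1KO oviducts, and it was -6.37 without that array. The 3 WT arrays agreed closely, at 10.67 ± 0.22 (SD), whereas the ESR1KO arrays averaged 5.66 ± 2.36.

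Abcc4 was higher without ESR1. Its probe set 1443870_at, the only one the annotation gives to Abcc4, read 11.90, 12.19 and 12.13 in PMSG-treated ESR1KO arrays, against 10.66, 10.43 and 9.83 in PMSG-treated WT arrays. These groups did not overlap, and the difference was 1.77 (SE 0.22), or 3.41-fold. In untreated oviducts the signals were 12.13, 11.90 and 12.47 in ESR1KO and 11.29, 10.80 and 11.09 in WT arrays. Here the nearest arrays were 0.61 apart and the difference was 1.11 (SE 0.22), or 2.15-fold, and 1.24 without ESR1KO replicate 2.

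Ptger4 was lower without ESR1. The probe set 1424208_at read 11.08, 10.93 and 10.81 in PMSG-treated ESR1KO arrays, against 12.55, 12.30 and 11.68 in PMSG-treated WT arrays. The groups did not overlap, with a difference of -1.24 (SE 0.20), or 2.36-fold lower. Untreated ESR1KO arrays read 10.87, 11.05 and 10.69, and untreated WT arrays 11.97, 11.96 and 11.91. The untreated difference was -1.08 (SE 0.19), or 2.11-fold lower, and -1.16 without ESR1KO replicate 2. A second Ptger4 probe set, 1421073_a_at, could be read in the untreated ESR1KO arrays alone, at 6.97, 7.70 and 6.77, and like the first it was highest in replicate 2.

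The order of the 4 group means differed between the genes. Hpgds averaged 4.94 ± 0.69 in PMSG-treated ESR1KO, 11.14 ± 0.66 in PMSG-treated WT, 5.66 ± 2.36 in ESR1KO and 10.67 ± 0.22 in WT oviducts (SD, n = 3 each), and within each genotype the groups overlapped. Ptger4 averaged 10.94 ± 0.13 in PMSG-treated ESR1KO, 12.18 ± 0.45 in PMSG-treated WT, 10.87 ± 0.18 in ESR1KO and 11.94 ± 0.03 in WT oviducts, and it too overlapped within genotypes. Abcc4 averaged 12.08 ± 0.15 in PMSG-treated ESR1KO, 10.31 ± 0.43 in PMSG-treated WT, 12.17 ± 0.28 in ESR1KO and 11.06 ± 0.25 in WT oviducts. Its ESR1KO groups overlapped, whereas every PMSG-treated WT array lay below every WT array.

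For all 3 genes the differences with PMSG were smaller than those with genotype. In WT oviducts the difference between PMSG-treated and untreated was 0.47 (SE 0.40) for Hpgds, -0.75 (SE 0.22) for Abcc4 and 0.24 (SE 0.20) for Ptger4. Their sizes depended on single arrays. Replicate 3 of the PMSG-treated WT group had the lowest signal of its group for all 3 genes, and without it these differences were 0.83, -0.51 and 0.48. Replicate 1 of that group had the highest for all 3, and without it they were 0.18, -0.93 and 0.05. Over the 1997 joined rows, PMSG-treated ESR1KO replicate 1 was the lowest array of its group in 52.8% and PMSG-treated WT replicate 3 in 51.5%. Without PMSG-treated ESR1KO replicate 1 the difference between PMSG-treated ESR1KO and PMSG-treated WT was -6.56 for Hpgds, 1.85 for Abcc4 and -1.31 for Ptger4. Without PMSG-treated WT replicate 3 the difference between PMSG-treated ESR1KO and PMSG-treated WT was -6.56 for Hpgds, 1.53 for Abcc4 and -1.49 for Ptger4. In ESR1KO oviducts the difference between PMSG-treated and untreated was -0.72 (SE 0.90) for Hpgds, -0.09 (SE 0.22) for Abcc4 and 0.07 (SE 0.19) for Ptger4. The Hpgds value turned to 0.65 without ESR1KO replicate 2. The genotype by PMSG interaction, the change of the genotype difference with PMSG, was -1.19 (SE 1.27) for Hpgds and 0.18 without that array. It was 0.66 (SE 0.31) for Abcc4, the genotype difference being wider after PMSG, and -0.16 (SE 0.27) for Ptger4. Without PMSG-treated WT replicate 3 these were 0.42 and -0.41, and without PMSG-treated WT replicate 1 they were 0.84 and 0.02.

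The other genes of the pathway were taken from 6 lists of 50 genes by role. The probe annotation named 44 of them, with 78 probe sets, and 10 could be joined across all 12 arrays, the 3 genes above and 7 others. Joining went through a gene list of the study that was held only in part, in alphabetical order, and 6 of the 50 genes, among them 4 of the 5 export and uptake genes, sort after the part held. A gene that was not joined may therefore still be on that list. Each joined gene is read here by a single probe set, and its other probe sets could not be compared between groups. Joined rows come from the study's own list of genes that changed across these 12 arrays, so their counts are not independent evidence and are high by construction. A gene was called changed at an adjusted p below 0.05 and at least 2-fold (limma, Benjamini-Hochberg over 45101 rows). Of the 7 others, 5 were higher and 1 lower in the PMSG-treated ESR1KO group against the PMSG-treated WT group. The median difference of the 7 was 1.37 against 0.01 over all rows, which were not chosen for change as the joined rows were. Over all rows, 4.48% were called in this comparison, 2.76% higher and 1.72% lower, and among the joined rows 28.3% were higher and 20% lower. In untreated oviducts 2 were higher and 1 lower in ESR1KO than in WT, with a median of 0.78 against 0.15 over the joined rows, of which 18.1% were called, 9.11% higher and 9.01% lower. Without ESR1KO replicate 2 the untreated differences were 2.58 for Pla2g5, 3.71 for Pla2g10, 1.07 for Pla2g15, 0.58 for Ptgs1, 0.91 for Ptgds, -3.48 for Ptgfr and 0.40 for Ptgr1, and Pla2g15, now past 2-fold, was called as well (adjusted p = 0.0214). In all 10 genes the 2 genotypes did not overlap, with PMSG or without. Groups that did not overlap were found in 19.6% of all rows and 93.1% of joined rows with PMSG, and in 78.5% of joined rows without.

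**Figure D2:**
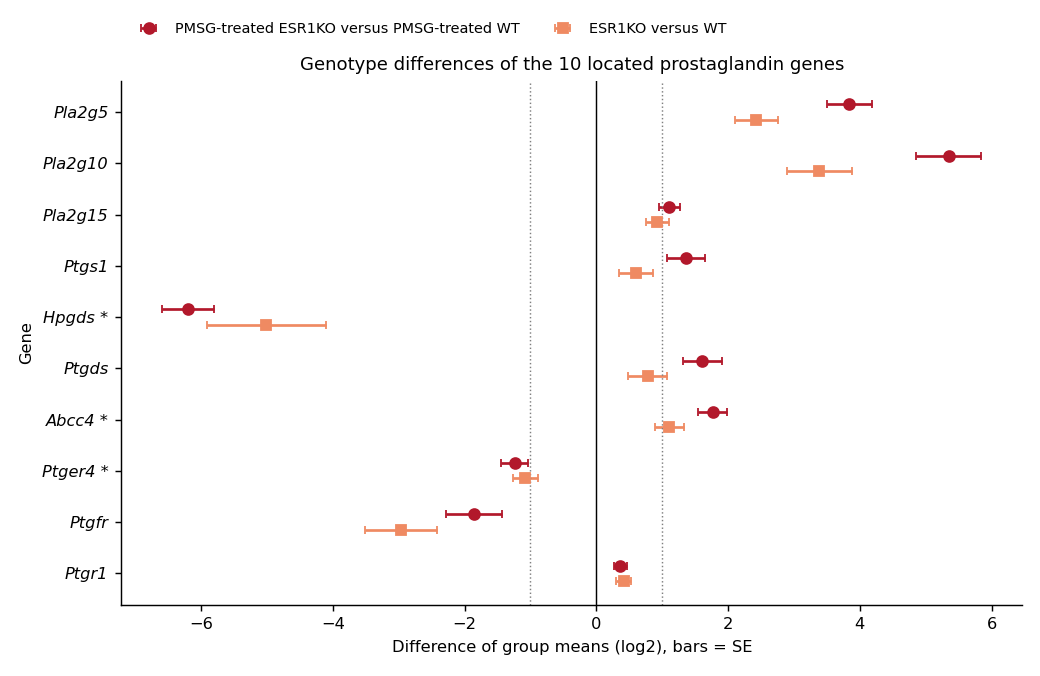
Difference of group means (log2, horizontal axis) for the 10 joined prostaglandin genes, with bars for the SE; circles are PMSG-treated ESR1KO minus PMSG-treated WT, squares are ESR1KO minus WT, an asterisk marks Hpgds, Abcc4 and Ptger4, and dotted lines mark 2-fold. Hpgds, Ptger4 and Ptgfr lie left of 0 in both comparisons and the other 7 lie right of 0.

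Upstream of the prostaglandin synthases, 3 phospholipases were higher in the PMSG-treated ESR1KO group against its WT counterpart. Pla2g10, a secreted phospholipase A2, read 9.03, 9.17 and 9.94 in PMSG-treated ESR1KO arrays, against 3.93, 4.63 and 3.52 in PMSG-treated WT arrays, where it was near background. The difference was 5.35 (SE 0.50, adjusted p = 0.000445), and without PMSG it was 3.39 (SE 0.49, adjusted p = 0.00932). Pla2g5, another secreted phospholipase A2, read 10.86, 10.69 and 10.87 in PMSG-treated ESR1KO arrays, against 7.50, 7.28 and 6.12 in PMSG-treated WT arrays. It differed by 3.84 (SE 0.34, adjusted p = 0.000331) with PMSG and by 2.43 (SE 0.32, adjusted p = 0.00667) without. The lysosomal phospholipase Pla2g15 differed by 1.11 (SE 0.16, adjusted p = 0.00427) between PMSG-treated ESR1KO and PMSG-treated WT oviducts, and its untreated difference of 0.92 (SE 0.17) was below 2-fold. The untreated call of Pla2g10 was lost without ESR1KO replicate 3, WT replicate 2 or WT replicate 3 (adjusted p 0.0506 to 0.0544).

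The cyclooxygenase Ptgs1 read 10.64, 10.96 and 10.74 in PMSG-treated ESR1KO arrays, against 9.56, 9.998 and 8.69 in PMSG-treated WT arrays, a difference of 1.37 (SE 0.29, adjusted p = 0.0232). Its untreated difference was 0.60 (SE 0.26) and was not called. Its row carried a name in the study's list and none in the probe annotation. Ptgds, the lipocalin-type synthase that makes the same product as Hpgds, differed in the opposite direction. It read 10.29, 9.95 and 10.42 in PMSG-treated ESR1KO arrays, against 9.04, 8.95 and 7.85 in PMSG-treated WT arrays, a difference of 1.61 (SE 0.29, adjusted p = 0.0127), and its untreated difference of 0.78 (SE 0.30) was not called. The call of Ptgds was lost without PMSG-treated ESR1KO replicate 3 (adjusted p = 0.0640), and that of Ptgs1 without replicate 2 or 3 of that group or PMSG-treated WT replicate 1 (0.0507 to 0.0848).

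Ptgfr, the receptor for prostaglandin F2 alpha, was lower without ESR1, as was Ptger4. It read 5.54, 4.99 and 4.89 in PMSG-treated ESR1KO arrays, against 7.88, 6.97 and 6.14 in PMSG-treated WT arrays. The difference was -1.86 (SE 0.43, adjusted p = 0.0345). Untreated ESR1KO arrays read 3.85, 6.05 and 5.19, against 7.56, 8.40 and 8.02 in WT, and the difference was -2.97 (SE 0.55, adjusted p = 0.0304). As for Hpgds, replicate 2 held the highest untreated ESR1KO signal. Both calls of Ptgfr rested on single arrays. With PMSG the call was lost without replicate 2 or 3 of the PMSG-treated ESR1KO group, replicate 1 or 2 of the PMSG-treated WT group or replicate 2 or 3 of the WT group (adjusted p 0.0516 to 0.137). Untreated, it was lost without replicate 2 or 3 of the PMSG-treated ESR1KO group, replicate 1 or 3 of the ESR1KO group or any WT array (0.0552 to 0.169). Both calls were also lost with the replicate number as a block (adjusted p = 0.0519 with PMSG and 0.0672 without), in the unmoderated two-way model (0.109 and 0.136), with only the 6 arrays compared (0.0929 and 0.118) and with signals under 4 set to 4 (0.0779 and 0.0785). Ptgr1, an enzyme that breaks prostaglandins down, differed by 0.36 (SE 0.10, adjusted p = 0.0705) with PMSG and by 0.42 (SE 0.11) without, and was called in neither comparison.

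**Figure D3:**
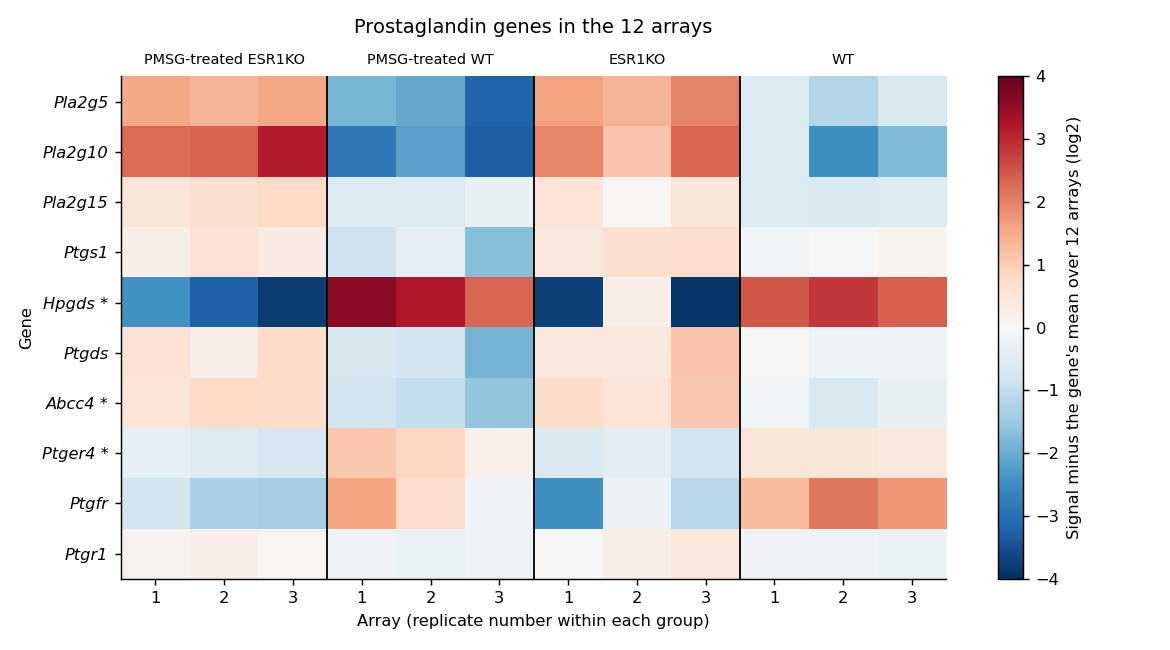
Signal of the 10 joined prostaglandin genes (rows) in the 12 arrays (columns, replicates 1 to 3 within each group), each as its difference from that gene's mean over the 12 arrays (log2, colour scale); an asterisk marks Hpgds, Abcc4 and Ptger4. Hpgds stands opposite to Pla2g5 and Pla2g10 in every array except ESR1KO replicate 2, where it is near its mean, and 8 of the 10 genes have their lowest PMSG-treated WT signal in replicate 3.

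None of the 7 other genes was called between PMSG-treated WT and WT, between PMSG-treated ESR1KO and ESR1KO or for the interaction, calls that 0.251% of all rows, 0.1% of joined rows and 0.651% of joined rows received. In WT oviducts 4 of the 10 genes did not overlap between PMSG-treated and untreated arrays, as 13.5% of all rows did not. They were Pla2g5, Ptgs1, Ptgds and Abcc4, all lower with PMSG, by 1.59, 0.98, 0.97 and 0.75 on the log2 scale. In ESR1KO oviducts 0 of 10 genes were without overlap, against 21.5% of joined rows. Before adjustment, limma put 5 of the 7 below 0.05 between PMSG-treated WT and WT and 0 between PMSG-treated ESR1KO and ESR1KO. For the interaction it put 2 there, Pla2g5 at 1.41 (SE 0.46) and Pla2g10 at 1.96 (SE 0.70). The share of all rows or of joined rows below that unadjusted p was not computed. Joined rows were listed for change in these arrays, so these counts are no evidence of a response of the pathway. The unmoderated two-way model called none of the 7 in these comparisons.

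The rest of the pathway could be read in the 3 untreated ESR1KO arrays alone, where 27 of the 44 named genes had a probe set with a mean of at least 4 and 17 had none. On the side of the substrate, the cytosolic phospholipase Pla2g4a read 11.65, 11.76 and 11.52, and Ptgs2, the inducible cyclooxygenase, 9.13, 8.12 and 7.79. Among the terminal enzymes Ptgis, the prostacyclin synthase, read 10.06, 9.72 and 9.99, while the thromboxane synthase Tbxas1 and all 3 probe sets of Ptges, the inducible prostaglandin E synthase, had means below 4. Hpgd, which inactivates prostaglandins, read 11.28, 11.58 and 11.48. The uptake carrier Slco2a1 read 9.37, 9.51 and 9.94.

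Of the 9 prostanoid receptors, 5 had a mean of at least 4 in these arrays, Ptger2, Ptger3, Ptger4, Ptgfr and Ptgir. Ptger2, which like Ptger4 raises cyclic AMP on binding prostaglandin E2, read 9.81, 9.20 and 9.22. Both receptors for prostaglandin D2, the product of Hpgds, lay near background, Ptgdr at 2.07, 1.98 and 1.95 and Ptgdr2 at 1.55 in the highest array. A low signal of a probe set does not show that the mRNA is absent.

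**Figure D4:**
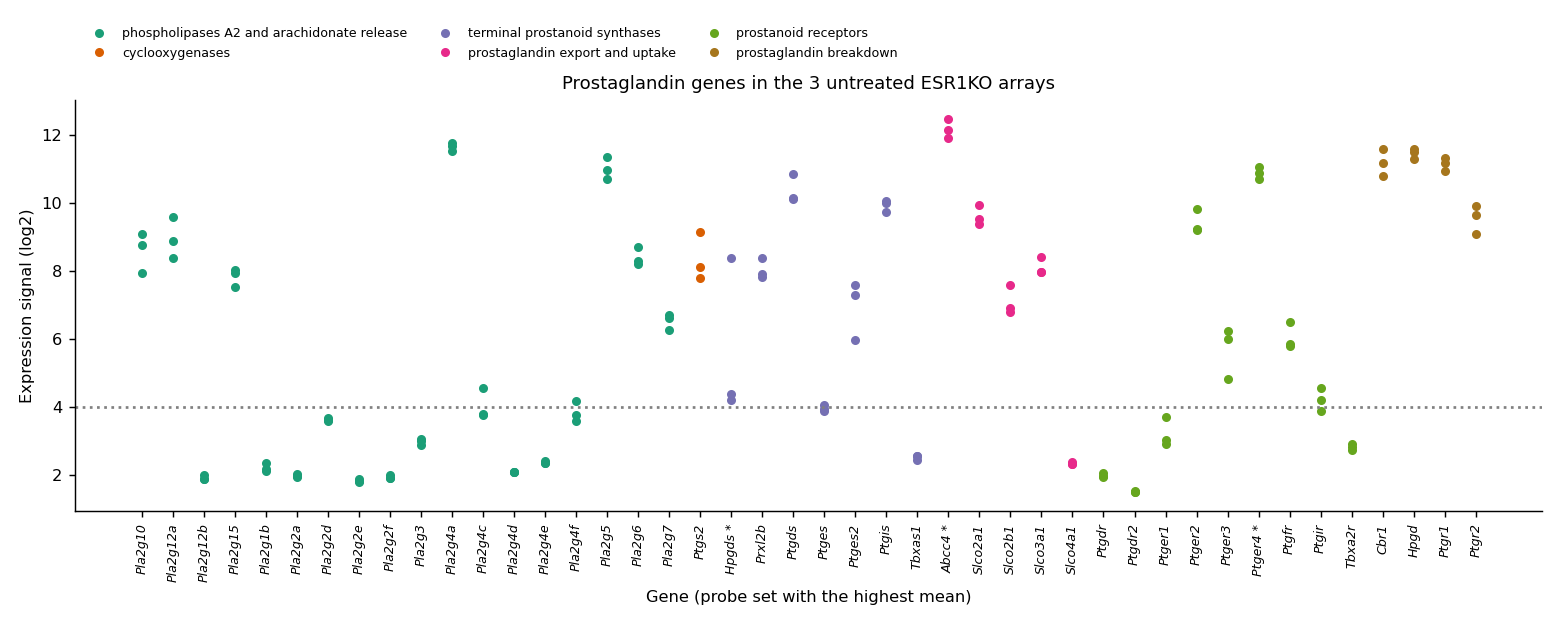
Expression signal (log2, vertical axis) in the 3 untreated ESR1KO arrays of the prostaglandin genes that the probe annotation names, by role and in alphabetical order, each by its probe set with the highest mean; points are arrays, the dotted line marks 4 and an asterisk marks Hpgds, Abcc4 and Ptger4. Heights cannot be compared between genes, since each probe set has its own efficiency, and Hpgds shows 1 array at 8.38 above 4.38 and 4.21.

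Among families close to the 3 genes, the glutathione S-transferases, the family of Hpgds, held calls in both directions. Of their 26 genes 7 were joined, and with PMSG 4 of these were called higher and 2 lower, where 28.3% of joined rows were called higher and 20% lower. In PMSG-treated ESR1KO against PMSG-treated WT oviducts Gsta2, Gsta3, Gstm7 and Gstt1 were higher, by 1.59, 2.75, 2.42 and 1.21, and Gstm6 and Mgst3 were lower, at -2.01 and -1.71. Gstcd differed by 0.16 (SE 0.16). In untreated oviducts 1 of the 7 was called, where 18.1% of joined rows were. It was Gsta3, at 1.80 (SE 0.34, adjusted p = 0.0356), and it was not called without ESR1KO replicate 2 (1.91, adjusted p = 0.0731). Of the 10 other genes of the Abcc4 family, 1 was joined, Abcc9, a regulatory subunit of potassium channels in smooth muscle. It was lower in ESR1KO oviducts both with PMSG (-1.64, SE 0.29, adjusted p = 0.0110) and without (-2.89, SE 0.51, adjusted p = 0.0252). Of 19 genes that make or degrade cyclic AMP, the messenger of EP4, 6 were joined. In PMSG-treated ESR1KO against PMSG-treated WT oviducts 3 of the 6 were called higher, where 28.3% of joined rows were. They were the cyclase Adcy8 (1.91), near background in PMSG-treated WT, and the phosphodiesterases Pde4d (1.71) and Pde7a (1.12). The median of the 6 was 0.92 against 0.01 over all rows, which were not chosen for change as the joined rows were. In untreated oviducts 1 of the 6 was called, Pde4d (1.03), with a median of 0.12 against 0.15 over joined rows. None of the 6 was called lower in either comparison.

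The arrays were made from whole oviducts, so fewer cells of a type and less mRNA per cell cannot be told apart. Mast cells are a known site of Hpgds. Of 8 mast cell markers, 1 could be joined, Kit, which read 4.18 to 5.55 in PMSG-treated ESR1KO, 6.79 to 7.52 in PMSG-treated WT, 5.23 to 6.51 in ESR1KO and 7.09 to 7.89 in WT arrays. Kit differed by -2.26 (SE 0.37, adjusted p = 0.00805) with PMSG and by -1.62 (SE 0.40, adjusted p = 0.142) without. These Kit values come from its joined probe set. In the untreated ESR1KO arrays 6 of the 8 markers, Cma1, Cpa3, Fcer1a, Mcpt4, Ms4a2 and Tpsb2, had means below 4. In the same arrays Gata2 averaged 10.23 and 8.54 by its probe sets. A second Kit probe set, which was not joined, read 8.68, 9.72 and 9.81 there. The signals of the 6 low markers, of Gata2 and of this second probe set in WT arrays are not analysed here. The part of mast cells in the Hpgds difference was not tested.

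Macrophages also use the pathway. Of 10 macrophage markers 3 were joined, Csf1r, Mrc1 and Cd163, and between PMSG-treated ESR1KO and PMSG-treated WT oviducts all 3 were called higher, by 1.62, 1.00 and 2.18, where 28.3% of joined rows were. In untreated oviducts Mrc1 (1.11) and Cd163 (1.67) were called and Csf1r was not (0.61, adjusted p = 1), where 9.11% of joined rows were called higher. Their summed signal, on the log2 scale, was 11.85 to 12.09 in PMSG-treated ESR1KO and 10.25 to 10.94 in PMSG-treated WT arrays. Untreated, it was 11.10 to 11.65 in ESR1KO and 10.15 to 10.41 in WT arrays. By genotype this is the direction of Abcc4. Between PMSG-treated and untreated WT oviducts Abcc4 differed by -0.75, Csf1r by -0.42, Mrc1 by 0.71 and Cd163 by 0.74. In ESR1KO oviducts these differences were -0.09, 0.59, 0.60 and 1.25. None of the 3 markers was called in these comparisons. Of the joined markers of smooth muscle and endothelium, Pecam1 was lower in ESR1KO oviducts in both comparisons, at -1.26 (adjusted p = 0.0472) with PMSG and -3.24 (adjusted p = 0.0158) without, and Actg2 in the untreated comparison, at -2.26 (adjusted p = 0.0458). With PMSG Actg2 differed by -1.64 (adjusted p = 0.0543). Kdr was called in neither comparison (-0.23 and -0.51, adjusted p = 0.731 and 0.818). Without ESR1KO replicate 2 the untreated difference of Pecam1 was -3.96 and that of Actg2 was -2.54 and no longer called (adjusted p = 0.0517). Actg2, 1 of 6 smooth muscle markers, read 9.94 to 11.89 in PMSG-treated ESR1KO, 12.42 to 12.77 in PMSG-treated WT, 9.20 to 10.52 in ESR1KO and 11.78 to 12.59 in WT arrays. Pecam1 and Kdr, 2 of 4 endothelial markers, had a summed signal of 7.85 to 8.26 in PMSG-treated ESR1KO, 8.56 to 8.88 in PMSG-treated WT, 6.97 to 7.63 in ESR1KO and 8.57 to 8.998 in WT arrays. Of 6 stromal markers 3 were joined, with Pdgfra higher and Lum lower in ESR1KO oviducts in both comparisons. The joined Col1a2 probe set was lower in untreated ESR1KO than WT oviducts (-2.34, SE 0.44, adjusted p = 0.0337, and -2.69 without ESR1KO replicate 2). It differed by -1.13 (adjusted p = 0.107) with PMSG, a change of difference that was not called (interaction 1.21, adjusted p = 1). This probe set averaged 4.41 in untreated ESR1KO arrays, close to the near-background limit of 4. The other Col1a2 probe sets averaged 13.33 and 14.01 in those arrays and could not be compared with WT arrays. A sum of signals is weighted to its brightest probe set, here Pdgfra, and does not stand for the 3 markers evenly. Their summed signal was 13.78 to 13.97 in PMSG-treated ESR1KO, 12.88 to 13.22 in PMSG-treated WT, 13.04 to 13.73 in ESR1KO and 12.99 to 13.26 in WT arrays. The part of these cells in the differences of Abcc4 and Ptger4 was not tested. Of the 17 calls with PMSG in these families and markers, 11 held when any 1 array was left out, and Gsta2, Gstm6, Adcy8, Pde7a, Mrc1 and Pecam1 were lost without at least 1. None of the 10 untreated calls held throughout.

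Genes with the profile most like each of the 3 were sought among the joined rows by the root mean square difference of their signals over the 12 arrays, after each gene's mean was subtracted. Hpgds was closest to Cyp26a1, which degrades retinoic acid, at 0.52 log2 units, followed by Akr1c14 (0.70), a hydroxysteroid dehydrogenase, Rtn1 (0.83), Lrat (0.86), which esterifies retinol, and Mlc1 (0.88), against a median of 3.16 over joined rows. The signals of ESR1KO replicate 2 entered this measure. Abcc4 was closest to Chrnb1, AU021092, Gramd3, Schip1 and Amot, at 0.17 to 0.18 against a median of 0.82. Ptger4 was closest to Marcks (0.15), Pgk1, Gda, Arl6ip5 and Gtf2f2 (0.19), against a median of 0.86.

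**Figure D5:**
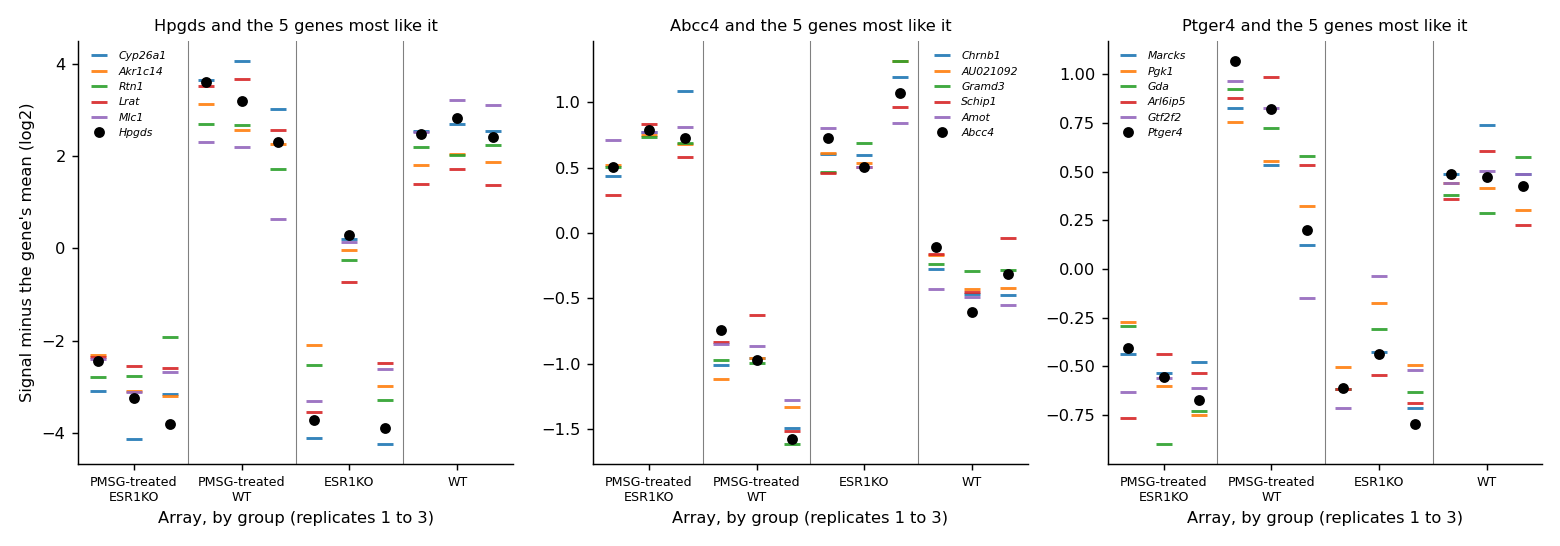
Signal of Hpgds, Abcc4 and Ptger4 (black points) and of the 5 joined genes most like each (coloured dashes) in the 12 arrays by group, each as its difference from the gene's own mean (log2, vertical axes, which differ between panels). The genes were chosen for their likeness over all 12 arrays, so the dashes follow the points within each panel by selection.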

How the data were processed

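The deposited values were log2 expression signals of 12 Affymetrix arrays, made by the authors in Partek 6.6 with GCRMA, quantile normalization and median polish. Only the columns of untreated ESR1KO are in the order of the probe set names, and 9 columns have a different order in common. Rows were therefore located by matching fold changes and p-values printed in the study's supplementary list (held in part, 1997 rows), used only as row keys, to values computed from the table. All 1997 were located, within 7.92e-05 on the log2 scale, and 99.6% of 1903 rows with a symbol carried the same one. For 29 rows a second untreated ESR1KO row matched, but for none of Hpgds, Abcc4 and Ptger4.

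Comparisons within the 9 columns were fitted over all 45101 rows and the others over the 1997 located rows, with limma 3.58.1 in R 4.3.3, a variance trend and the prior of the first fit (2.87 degrees of freedom). The p-values of the second kind were adjusted as if for 45101 tests, an upper bound. A single fit over all named rows had been planned, and the row order prevented it. Locating and fitting were tested on simulated data. Calls needed an adjusted p below 0.05 and, in pairwise comparisons, 2-fold. Precision is limited by the number of arrays. Genes and lists were chosen with earlier results of these data known, and the genes named outside the lists were the 5 most like each of the 3. Alternatives were leaving out each array, a replicate block, repeated quantile normalization, a floor of 4, no variance trend, an unmoderated two-way model, a filter at 4, no fold minimum and only the 6 arrays compared.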

Additional observations from a re-analysis of the deposited data

How the results depend on the processing

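The genotype differences of Hpgds, Abcc4 and Ptger4 kept their direction without any 1 array and with repeated quantile normalization. The remaining alternatives could not alter a difference of group means of these genes. Leaving out 1 array at a time, the differences between PMSG-treated ESR1KO and PMSG-treated WT ranged from -6.56 to -5.87 for Hpgds, 1.53 to 1.95 for Abcc4 and -1.49 to -1.05 for Ptger4. Between ESR1KO and WT they ranged from -6.37 to -4.29, 0.95 to 1.24 and -1.16 to -0.98. The interaction of Hpgds ranged from -1.91 to 0.18 and turned positive (0.18) without ESR1KO replicate 2, that of Abcc4 ranged from 0.42 to 0.84, and that of Ptger4 from -0.41 to 0.02, turning positive without PMSG-treated WT replicate 1. Between PMSG-treated WT and WT the differences ranged from 0.18 to 0.83, -0.93 to -0.51 and 0.05 to 0.48. Repeated quantile normalization moved no value of the 3 genes beyond the spread of its arrays. The floor of 4 could not move any, since the lowest signal of the 3 genes was 4.21.

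The counts of other prostaglandin genes called were less stable. Between PMSG-treated ESR1KO and PMSG-treated WT, 6 were called, and 3 in the unmoderated two-way model and with only the 6 arrays compared, where Ptgs1, Ptgds and Ptgfr were lost (adjusted p 0.0544 to 0.109). Without 1 array the count ranged from 3 to 6, and it was 3 without PMSG-treated ESR1KO replicate 3. Between ESR1KO and WT, 3 were called, 1 in the unmoderated model and 1 with only the 6 arrays, where Pla2g10 and Ptgfr were lost. Without 1 array it ranged from 1 to 4. It was 1 without ESR1KO replicate 3, WT replicate 2 or WT replicate 3, and 4 without ESR1KO replicate 2, when Pla2g15 was added. Between PMSG-treated WT and WT, 0 were called, and 1, Pla2g5, without PMSG-treated WT replicate 3 (0 to 1 over all arrays left out). Ptgfr was the call most often lost. Among family and marker genes, an alternative chosen after seeing the data, the count without 1 array ranged from 13 to 17 (17 with all arrays) with PMSG and from 0 to 10 (10 with all) without, and it was 0 without ESR1KO replicate 1, WT replicate 2 or WT replicate 3 and 3 to 5 without ESR1KO replicate 3, WT replicate 1 or PMSG-treated ESR1KO replicate 3. With the replicate block it was 16 and 9. The cause of these changes was not tested.

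The labels give arrays of different groups the same replicate numbers and no other link. Deviations from group means correlated at -0.12 to 0.36 over 9 pairs with the same number, and 5 of these were over 0.1, against 3 of 18 pairs with different numbers. All 3 pairs of PMSG-treated ESR1KO with WT arrays were over 0.1, whereas 1 of 3 was for PMSG-treated ESR1KO with PMSG-treated WT and for PMSG-treated WT with WT. Over the joined rows of all 12 arrays, 6 of 18 pairs with the same number were over 0.1, against 8 of 36 with different numbers. The highest of these, 0.26, was ESR1KO replicate 2 with WT replicate 2. The labels name no pairs, so the arrays were not treated as pairs. Whether some of them were linked cannot be told from these values. With the replicate number as a block, 5 genes were called with PMSG and 2 without, Ptgfr being lost in both. Every group holds the same replicate numbers, so the block could not change a difference of group means. Those of Hpgds, Abcc4 and Ptger4 stayed at -6.20, 1.77 and -1.24 with PMSG and -5.01, 1.11 and -1.08 without.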
